A study of Mus musculus with 18 samples.

Results

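The T cell receptors CD28 and ICOS and 5 ligands of the B7 family were followed in regulatory T cells (Tregs) that lacked CD25, the alpha chain of the IL-2 receptor. The 7 genes are *Cd28*, *Icos*, *Cd80*, *Cd86*, *Cd274*, *Pdcd1lg2* and *Icosl*, taken by symbol from the 50600 gene identifiers of the count table. Each symbol matched 1 identifier, all 7 passed the filter on low counts in both tissues, and they were picked by symbol with earlier results of these data known.

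CD28 is the receptor that a T cell needs, beside its antigen receptor, for full activation, and it binds CD80 (B7-1) and CD86 (B7-2) on antigen-presenting cells. ICOS, its inducible relative, binds ICOSL and marks effector Tregs, whereas CD274 (PD-L1) and PDCD1LG2 (PD-L2) bind the inhibitory receptor PD-1. CTLA-4, which Tregs carry at a high level, competes with CD28 for CD80 and CD86 and can strip both from other cells, and T cells can also make B7 ligands themselves.

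RNA-seq gene counts came from FACS-purified Tregs of 18 C57BL/6 mice, 1 library per mouse. Thymic CD25 KO Tregs were from 5 CD25flox mice with Foxp3-YFP/Cre (CD25cKO) at 3 to 4 weeks of age, and thymic WT Tregs were from 5 age-matched Foxp3/RFP mice. Splenic CD25 KO Tregs were YFP+ cells of 4 CD25flox/Foxp3eGFP-Cre-ERT2/R26Y mice, and splenic WT Tregs were from 4 CD25 WT reporter controls. Both splenic groups received tamoxifen at 7 to 10 weeks of age and were collected 10 to 14 days later. The CD25cKO mice were “cured” of autoimmunity by WT splenocytes given after birth, so that congenic WT donor Tregs also live in them, and their Cre acts from the time *Foxp3* is first expressed. The sort was on reporter dyes and surface markers. In the inducible mice Cre acts only in mature Tregs that express *Foxp3* when tamoxifen is given. The tissues differed in mouse model, age and the date in the column headers together, and in the thymus the genotypes also differed in reporter allele and in the cell transfer, so these cannot be told apart from tissue or genotype.

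Total counts were 17239774 to 23993674 per thymic and 25258341 to 32639570 per splenic library. *Il2ra*, which encodes CD25, was at 526 to 683 CPM (counts scaled to a fixed library size after TMM) in thymic WT and 95.2 to 288 CPM in thymic CD25 KO libraries, and at 481 to 534 CPM in splenic WT and 166 to 208 CPM in splenic CD25 KO libraries. Every CD25 KO library was thus below every WT library of its tissue. The counts add all exons and do not separate the deleted one. *Foxp3*, the defining Treg gene, was at 206 CPM or more in each of the 18 libraries. It was at 401 to 579 CPM in thymic WT and 274 to 346 CPM in thymic CD25 KO libraries. In the spleen it was at 319 to 340 CPM in WT and 206 to 237 CPM in CD25 KO libraries. *Foxp3* was thus lower in CD25 KO Tregs, with log2 fold changes of -0.74 in the thymus (adjusted p = 0.00101, edgeR) and -0.55 in the spleen (adjusted p = 6.90e-06, edgeR). A 3-count level corresponded to 0.0961 to 0.162 CPM. Bulk RNA does not tell fewer cells with a transcript from less of that transcript per cell.

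The 7 genes lie in 3 pairs on shared chromosomes and 1 single locus of GRCm38. *Cd28* (ENSMUSG00000026012.2, chr1:60716800-60773359) and *Icos* (ENSMUSG00000026009.14, chr1:60977927-61000320) are both on the plus strand, 204567 bases apart. *Cd80* (ENSMUSG00000075122.4, chr16:38455561-38496335, plus strand) and *Cd86* (ENSMUSG00000022901.13, chr16:36603869-36666081, minus strand) share chromosome 16. *Cd274* (ENSMUSG00000016496.7, chr19:29367455-29388095) and *Pdcd1lg2* (ENSMUSG00000016498.9, chr19:29410919-29471161) are plus-strand neighbours 22823 bases apart, and *Icosl* (ENSMUSG00000000732.9, chr10:78069302-78083913, plus strand) stands alone. A long noncoding transcript on the other strand, AC119228.1, covers 511 exonic bases of *Cd274* and is not a row of the table. Whether counting used strand was not stated, so reads of that transcript could have been counted for *Cd274*.

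The coding sequences of *Cd28* and *Icos* show what the receptors share and where they part, and are printed for the stretches that bind ligand and PI3K. In these GENCODE M21 sequences the capitals mark the codons of the motif, and residues are counted from the first methionine. The ligand-binding motif reads MYPPPY at residues 118 to 123 of the 218 of CD28 and FDPPPF at residues 114 to 119 of the 200 of ICOS. The tail motif that binds the p85 subunit of PI3K reads YMNM at residues 189 to 192 of CD28 and YMFM at residues 181 to 184 of ICOS, and the asparagine of the first also lets CD28 bind the adaptor GRB2.
Cd28 ligand-binding motif, exon 2, chr1:60763266-60763301, plus strand: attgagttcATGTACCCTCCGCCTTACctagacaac
Icos ligand-binding motif, exon 2, chr1:60993974-60994009, plus strand: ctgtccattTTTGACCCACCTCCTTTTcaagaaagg
Cd28 PI3K-binding motif, exon 4, chr1:60769684-60769713, plus strand: caaagtgacTACATGAACATGactccccgg
Icos PI3K-binding motif, exon 4, chr1:60995551-60995580, plus strand: aatagtgaaTACATGTTCATGgcggcagtc

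The 7 genes did not move as a block when CD25 was lost. In the thymus 5 of the 7 were DE at FDR < 0.01 by edgeR's quasi-likelihood test, with *Cd86* and *Cd274* higher and *Icos*, *Cd80* and *Icosl* lower in CD25 KO Tregs. In the spleen 4 of the 7 were DE, with *Icos*, *Cd80* and *Cd274* higher and *Cd86* lower. Of all 16986 genes tested in the thymus, 3.17% were called higher and 2.99% lower, and of 17463 in the spleen, 5.90% and 3.55%. *Icos*, *Cd80* and *Cd86* were called in opposite directions in the tissues, and *Cd274* was the only member called in the same direction in both. The 7 genes had a median log2 fold change of -0.38 (thymus) and 0.36 (spleen), against -0.0022 and -0.0065 over all genes tested.

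**Figure D1:**
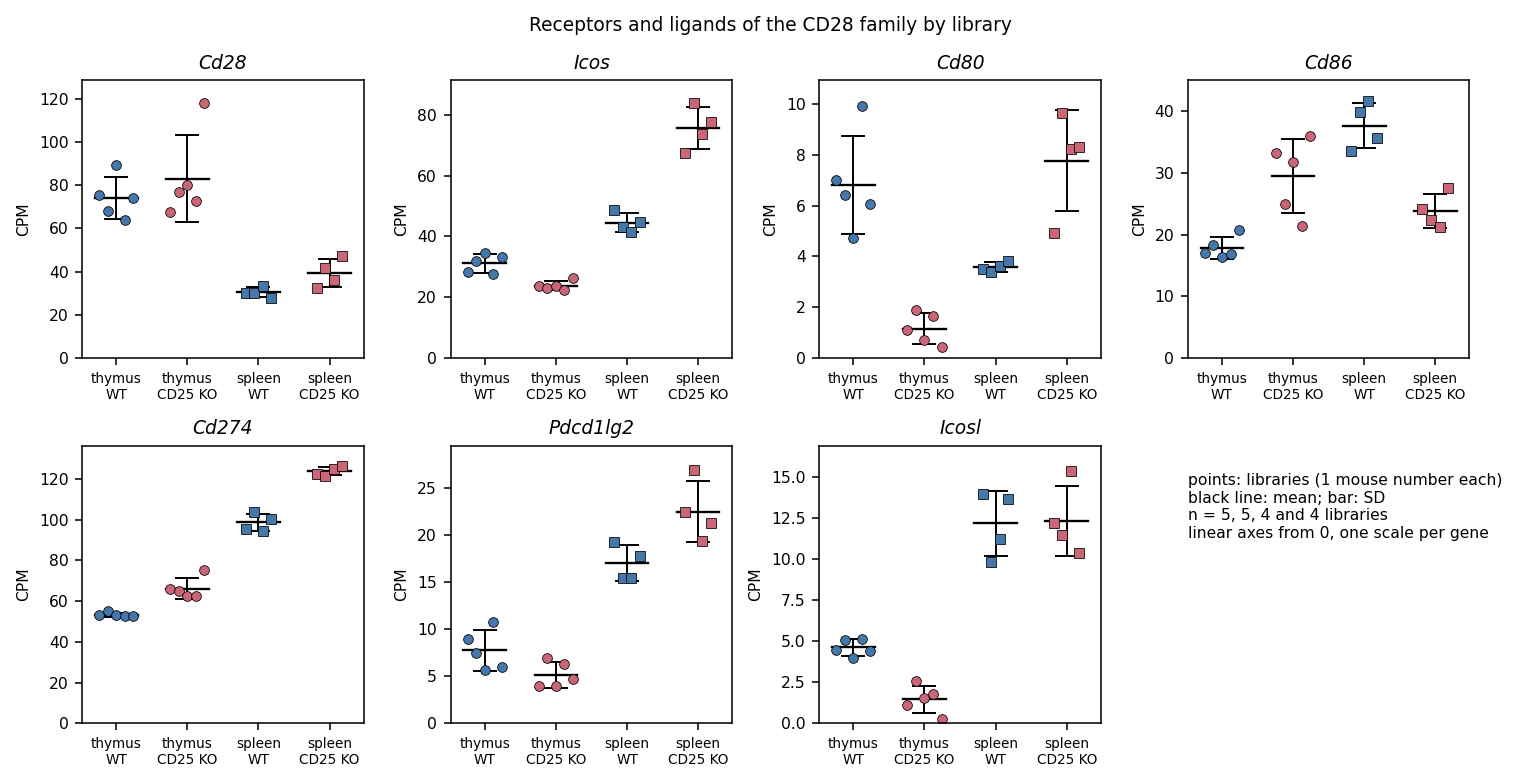
Level of each of the 7 genes in CPM (vertical axes, linear from 0, a separate scale for each gene) in the 18 libraries, with the mean and SD of thymic WT, thymic CD25 KO, splenic WT and splenic CD25 KO Tregs. *Cd80* sat at 0.427 to 1.90 CPM in thymic CD25 KO libraries, under all other libraries, whereas *Cd274* stepped up through the 4 groups from 52.7 to 126.2 CPM.

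*Cd28* was more abundant in thymic than in splenic Tregs and no difference between genotypes was called in either tissue. In thymic libraries 1 to 5, *Cd28* was at 75.6, 67.9, 89.2, 64.0 and 74.0 CPM in WT and at 67.5, 76.7, 80.3, 72.5 and 118 CPM in CD25 KO Tregs. Group means were 74.1 ± 9.66 CPM and 83.0 ± 20.1 CPM (SD, n = 5 each), and the log2 fold change was 0.17 with a 95% interval from -0.13 to 0.47 (adjusted p = 0.398, edgeR). The thymic groups overlapped, with the CD25 KO library of mouse 5 above all the others. In splenic libraries 1 to 4 it was at 30.3, 30.3, 33.4 and 27.7 CPM in WT and at 32.4, 41.9, 36.3 and 47.4 CPM in CD25 KO Tregs. The splenic log2 fold change of 0.36 (SE 0.0947) had an adjusted p of 0.0140, short of the threshold. Without CD25 KO library 1, the lowest of its group, it was 0.44 and passed (adjusted p = 0.00212), and DESeq2 also called it (0.36, adjusted p = 0.00516).

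*Icos* fell in CD25 KO Tregs of the thymus and rose in those of the spleen. Thymic WT libraries 1 to 5 were at 28.4, 31.8, 34.5, 27.7 and 33.2 CPM and thymic CD25 KO libraries at 23.6, 23.2, 23.6, 22.2 and 26.2 CPM. No CD25 KO library reached the lowest WT library. The log2 fold change was -0.38 (SE 0.075, adjusted p = 0.00611, edgeR), a 1.30-fold lower level. This call was lost in 7 of the 10 fits that left out 1 mouse (WT 2, 3 or 5, or CD25 KO 1, 2, 3 or 4), with adjusted p from 0.0118 to 0.0217, while the log2 fold change stayed between -0.42 and -0.34. Splenic WT libraries 1 to 4 were at 48.7, 43.0, 41.4 and 44.9 CPM, and splenic CD25 KO libraries at 67.6, 83.9, 73.5 and 77.6 CPM. The splenic groups were far apart, by a log2 fold change of 0.75 (SE 0.069, adjusted p = 2.76e-06, edgeR), or 1.68-fold, and all 15 alternatives kept that call. From thymic CD25 KO through thymic WT and splenic WT to splenic CD25 KO, none of the 4 ranges of *Icos* touched the next.

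The balance of both receptors within a library does not depend on scaling between libraries. In thymic WT libraries 1 to 5 there were 37.5, 46.9, 38.7, 43.2 and 44.9 *Icos* counts per 100 *Cd28* counts, and in thymic CD25 KO libraries 34.9, 30.2, 29.4, 30.7 and 22.2. The mean log2 ratio was lower by 0.53 in CD25 KO libraries, or -0.53 as CD25 KO minus WT (two-sided exact permutation test, p = 0.00794, the smallest that 5 against 5 allows, adjusted p = 0.0159 over both tissues). In the spleen the ratio went the other way. Splenic WT libraries 1 to 4 had 161, 142, 124 and 162 *Icos* counts per 100 *Cd28* counts and splenic CD25 KO libraries 209, 201, 203 and 164. The difference in the mean log2 ratio was 0.40 (two-sided exact permutation test, p = 0.0286, the smallest that 4 against 4 allows, adjusted p = 0.0286). Neither tissue had an overlap between genotypes, although splenic CD25 KO library 4 at 164 was next to splenic WT library 4 at 162.

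**Figure D2:**
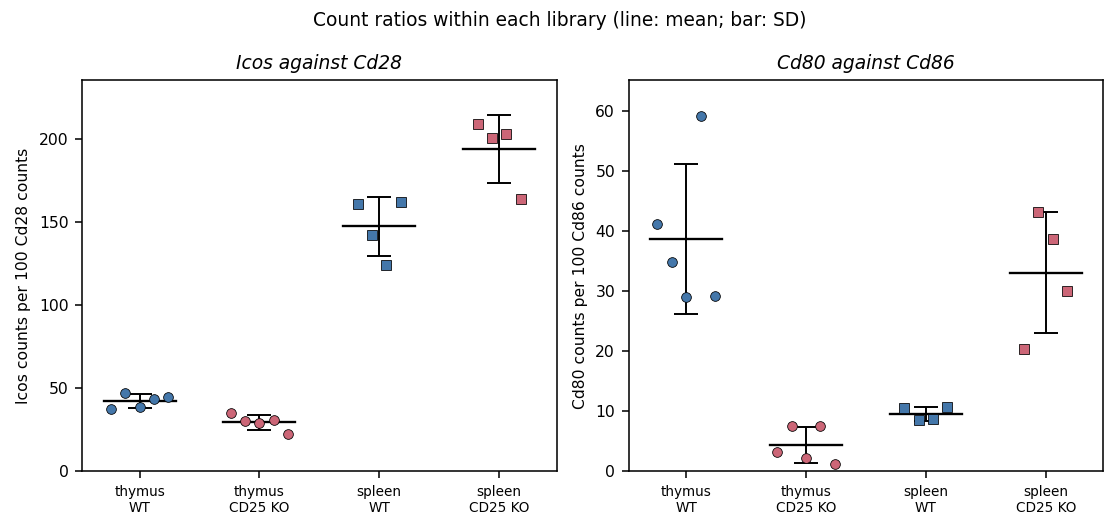
*Icos* counts per 100 *Cd28* counts (left) and *Cd80* counts per 100 *Cd86* counts (right) in each library of the 4 groups, with mean and SD. Both ratios were lower in CD25 KO than in WT libraries of the thymus and higher in CD25 KO than in WT libraries of the spleen, without overlap within a tissue.

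*Cd80* and *Cd86*, which encode the shared ligands of CD28 and CTLA-4, moved against each other in both tissues. *Cd80* was at 7.02, 6.41, 4.73, 9.94 and 6.04 CPM in thymic WT libraries 1 to 5 and at 1.10, 1.90, 0.701, 1.63 and 0.427 CPM in thymic CD25 KO libraries. The groups were well apart, and the lowest CD25 KO library still held 8 *Cd80* counts. The log2 fold change was -2.54 (SE 0.320, adjusted p = 0.000794, edgeR), 5.80-fold lower in CD25 KO Tregs, and it was called in all 18 alternatives in which *Cd80* could be tested. Splenic WT libraries 1 to 4 were at 3.51, 3.39, 3.61 and 3.83 CPM and splenic CD25 KO libraries at 4.93, 9.64, 8.21 and 8.30 CPM. Here *Cd80* was 2.15-fold higher in CD25 KO Tregs, a log2 fold change of 1.10 (SE 0.171, adjusted p = 0.000334, edgeR). With all 18 libraries in 1 fit the splenic log2 fold change was the same and the adjusted p was 0.0111, short of the threshold.

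*Cd86* showed the reverse pattern. In the thymus it was at 17.1, 18.4, 16.3, 16.8 and 20.7 CPM in WT libraries 1 to 5 and at 33.2, 24.9, 31.8, 21.5 and 36.0 CPM in CD25 KO libraries. All CD25 KO libraries were above all WT libraries, by 1.66-fold (log2 fold change 0.73, SE 0.132, adjusted p = 0.00437, edgeR). The call was lost without WT mouse 2 or 3 or CD25 KO mouse 1 or 3 (adjusted p from 0.0122 to 0.0138) and after removal of the GC trend of each library (0.58, adjusted p = 0.0113). In the spleen *Cd86* was at 33.5, 39.9, 41.6 and 35.7 CPM in WT libraries 1 to 4 and at 24.1, 22.3, 21.2 and 27.6 CPM in CD25 KO libraries. The splenic level fell by 0.67 on the log2 scale (SE 0.0853, adjusted p = 5.36e-05, edgeR), 1.60-fold, with no overlap.

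Set against each other within a library, there were 41.1, 34.9, 29.0, 59.1 and 29.1 *Cd80* counts per 100 *Cd86* counts in thymic WT libraries 1 to 5 and 3.30, 7.62, 2.20, 7.61 and 1.19 in thymic CD25 KO libraries. In the spleen the values were 10.5, 8.50, 8.67 and 10.7 in WT and 20.4, 43.2, 38.7 and 30.1 in CD25 KO libraries 1 to 4. The ranges of the genotypes were apart in both tissues, on opposite sides.

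*Cd274*, which encodes PD-L1, rose by a similar amount in both tissues. Thymic WT libraries 1 to 5 were at 53.1, 55.0, 53.3, 52.7 and 52.7 CPM, and thymic CD25 KO libraries at 65.9, 64.9, 62.4, 62.4 and 75.2 CPM. The log2 fold change was 0.32 (SE 0.0571, adjusted p = 0.00427, edgeR), 1.25-fold. It was lost as a call without WT mouse 1, 2, 3 or 5 or CD25 KO mouse 1 or 3, with adjusted p from 0.0100 to 0.0136, and its size stayed between 0.27 and 0.34. In splenic libraries 1 to 4 *Cd274* was at 95.7, 104, 94.7 and 100 CPM in WT and at 122.7, 121.7, 125.1 and 126.2 CPM in CD25 KO Tregs. That is a log2 fold change of 0.31 (SE 0.0488, adjusted p = 0.000331, edgeR), or 1.24-fold. Genotypes did not overlap in either tissue, and the 4 groups stood in the order thymic WT, thymic CD25 KO, splenic WT, splenic CD25 KO with no contact between neighbours.

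*Pdcd1lg2*, the PD-L2 gene next to *Cd274*, did not share its rise in the thymus and was not called in either tissue. In thymic libraries 1 to 5 it was at 9.02, 7.51, 5.63, 10.8 and 5.96 CPM in WT and at 3.94, 6.93, 3.99, 6.26 and 4.69 CPM in CD25 KO Tregs. These ranges overlapped, and the log2 fold change of -0.58 had a 95% interval from -1.05 to -0.12 and an adjusted p of 0.0662 (edgeR). In splenic libraries 1 to 4 it was at 19.3, 15.5, 15.5 and 17.8 CPM in WT and at 22.5, 27.0, 19.4 and 21.3 CPM in CD25 KO Tregs. The splenic groups did not overlap, by the narrow gap between 19.3 and 19.4 CPM, and the log2 fold change of 0.39 (SE 0.104) missed the threshold with an adjusted p of 0.0160 (edgeR). It passed in DESeq2 (0.39, adjusted p = 0.00542), without a filter on low counts (0.39, adjusted p = 0.000669), and without WT library 1 (0.45, adjusted p = 0.00901) or CD25 KO library 3 (0.45, adjusted p = 0.00705).

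*Icosl*, the ligand of ICOS, fell in the thymus and was not called in the spleen. Thymic WT libraries 1 to 5 were at 4.48, 5.10, 3.97, 5.17 and 4.41 CPM and thymic CD25 KO libraries at 1.15, 2.56, 1.56, 1.77 and 0.267 CPM, the last from 5 counts. The groups did not overlap. The log2 fold change was -1.64 (SE 0.340, adjusted p = 0.00784, edgeR), 3.12-fold lower in CD25 KO Tregs. The call was lost in 8 of the 10 fits that left out 1 mouse (any WT mouse, or CD25 KO 1, 3 or 4), with adjusted p from 0.0109 to 0.0221 and values from -1.93 to -1.38. Splenic WT libraries 1 to 4 were at 14.0, 9.85, 11.3 and 13.7 CPM, and splenic CD25 KO libraries at 12.2, 11.5, 15.4 and 10.4 CPM. The splenic groups lay on top of each other, with a log2 fold change of 0.0054 and a 95% interval from -0.28 to 0.29 (adjusted p = 0.985, edgeR).

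**Figure D3:**
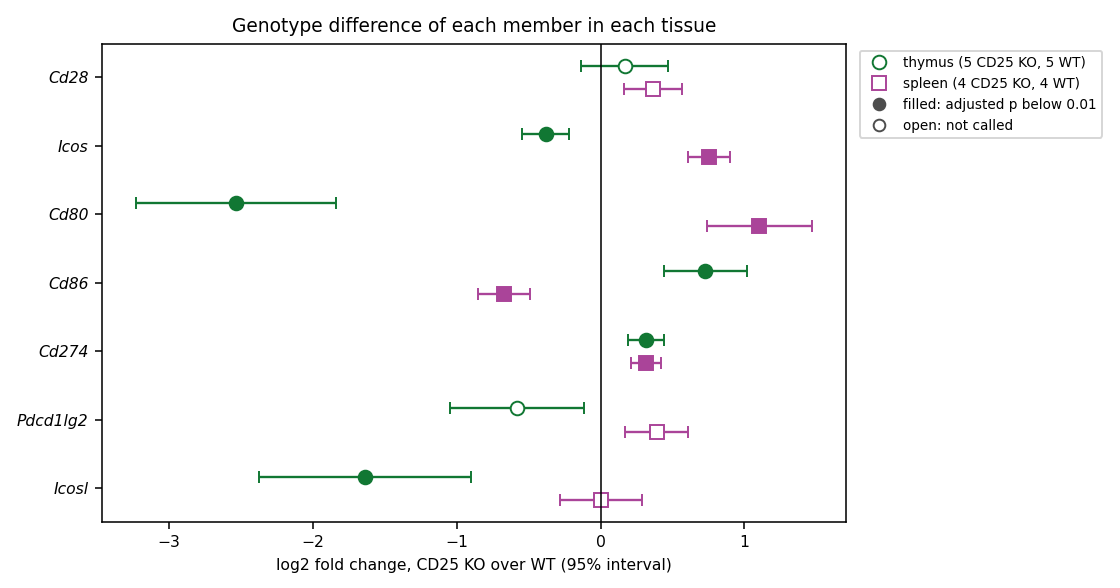
Log2 fold change of CD25 KO over WT (horizontal axis) with its 95% interval for each of the 7 genes in thymic (circles) and splenic (squares) Tregs; filled symbols passed FDR < 0.01. *Icos*, *Cd80* and *Cd86* lie on opposite sides of 0 in the tissues, and the intervals of *Cd274* overlap around 0.32 and 0.31.

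The difference between the tissues was tested itself, as the splenic minus the thymic log2 fold change in 1 edgeR fit of all 18 libraries, in which 6.98% of 18686 genes were called. It was 1.15 for *Icos* (SE 0.109, adjusted p = 1.10e-06), 3.65 for *Cd80* (SE 0.384, adjusted p = 3.60e-06), -1.39 for *Cd86* (SE 0.178, adjusted p = 3.45e-05) and 1.66 for *Icosl* (SE 0.367, adjusted p = 0.00442). The first 3 of these calls held in every fit that left out 1 mouse. The call of *Icosl* was lost without thymic CD25 KO mouse 1, splenic WT mouse 2 or 3, or splenic CD25 KO mouse 3, with adjusted p from 0.0108 to 0.0126. *Pdcd1lg2* fell short at 0.98 (SE 0.252, adjusted p = 0.0118), and passed in DESeq2 (1.00, adjusted p = 0.00158). For *Cd274* the difference was 0.013 with a 95% interval from -0.14 to 0.17 (adjusted p = 0.930), and for *Cd28* it was 0.21 with an interval from -0.19 to 0.61 (adjusted p = 0.475).

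Between WT Tregs all 7 genes differed by tissue in the same fit, where 21.0% of all genes were called higher and 19.5% lower in the spleen. *Cd28* (log2 difference, spleen minus thymus, -1.27) and *Cd80* (-0.91) were lower in splenic WT Tregs. *Icos* (0.54), *Cd86* (1.10), *Cd274* (0.91), *Pdcd1lg2* (1.15) and *Icosl* (1.42) were higher. Adjusted p-values ran from 1.34e-11 for *Cd274* to 0.00551 for *Cd80* (edgeR). Tissue, age, mouse model and header date cannot be told apart in these 7 differences.

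Levels can be compared between genes only per length of exon. As mean CPM per kb in thymic WT Tregs, *Cd274* was highest at 14.7 ± 0.257, followed by *Cd28* at 12.1 ± 1.58 and *Icos* at 9.07 ± 0.875 (SD, n = 5). *Cd86* (4.88 ± 0.487), *Pdcd1lg2* (3.97 ± 1.10), *Cd80* (1.84 ± 0.521) and *Icosl* (1.00 ± 0.110) were lower. In splenic WT Tregs *Cd274* stood at 27.2 ± 1.18 CPM per kb and *Icos* at 12.98 ± 0.913, followed by *Cd86* at 10.3 ± 1.015, *Pdcd1lg2* at 8.68 ± 0.966 and *Cd28* at 4.97 ± 0.379 (SD, n = 4). *Icosl* (2.64 ± 0.432) and *Cd80* (0.968 ± 0.0502) were lowest. The PD-1 ligand *Cd274* was thus the most abundant transcript of the 7 per length in both WT groups, while *Cd28* ranked above *Icos* in the thymus and below *Icos*, *Cd86* and *Pdcd1lg2* in the spleen. In splenic CD25 KO Tregs *Cd274* was at 34.2 ± 0.581 CPM per kb and *Icos* at 22.1 ± 2.01, while *Cd28* was at 6.45 ± 1.07 (SD, n = 4).

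Among the 5 thymic CD25 KO mice, the 2 with the most *Il2ra* also stood at 1 end of their group for 4 ligands. Mice 2 and 4 had 288 and 236 CPM of *Il2ra* and the other 3 mice 95.2 to 105 CPM. The same 2 mice had the highest *Cd80* of the group (1.90 and 1.63 CPM, against 0.427 to 1.10), the highest *Icosl* (2.56 and 1.77, against 0.267 to 1.56) and the highest *Pdcd1lg2* (6.93 and 6.26, against 3.94 to 4.69), and the lowest *Cd86* (24.9 and 21.5, against 31.8 to 36.0). For these 4 genes the 2 libraries lay on the WT side of their group. *Icos* went the other way, with mice 2 and 4 lowest (23.2 and 22.2, against 23.6 to 26.2) and furthest from WT. *Cd28* (76.7 and 72.5, against 67.5 to 118) and *Cd274* (64.9 and 62.4, against 62.4 to 75.2) did not set the 2 mice apart. The 4 ligands were picked out after their values were seen, and whether undeleted cells took part in the levels was not tested. Without mice 2 and 4 the thymic calls of *Cd80*, *Cd86*, *Cd274* and *Icosl* held, while *Icos* was at -0.34 with an adjusted p of 0.0178 (edgeR).

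**Figure D4:**
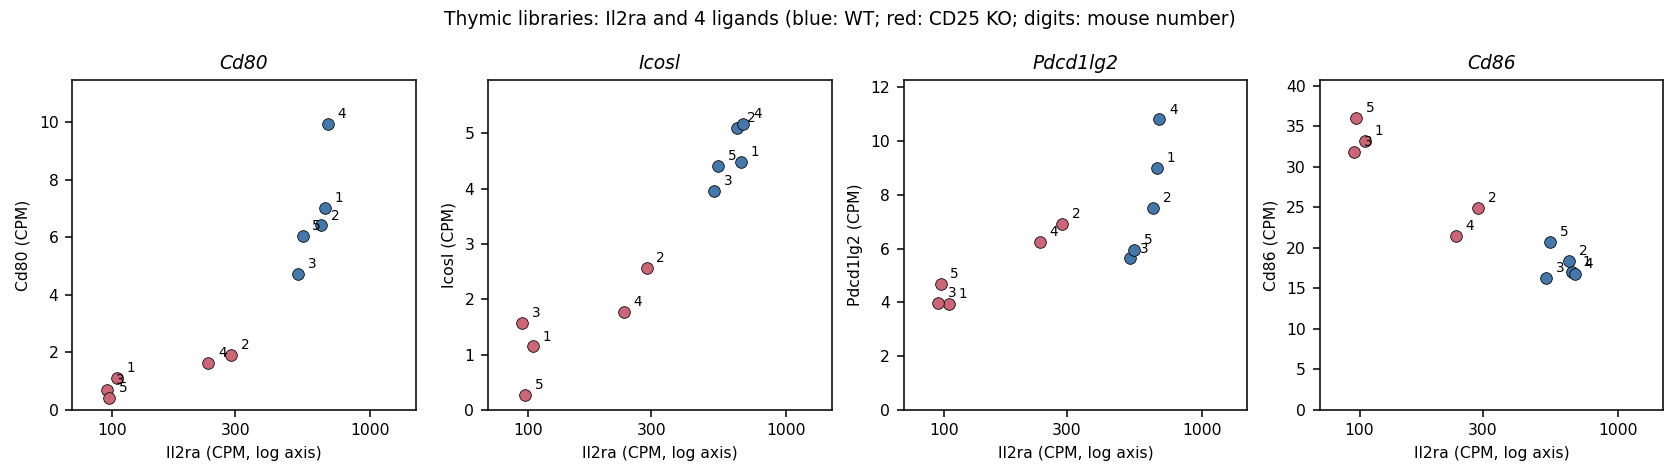
Level of *Cd80*, *Icosl*, *Pdcd1lg2* and *Cd86* (vertical axes, CPM, linear from 0) against *Il2ra* (horizontal axis, CPM, log scale) in the 10 thymic libraries, labelled by mouse number, with WT in blue and CD25 KO in red. CD25 KO mice 2 and 4, at 288 and 236 CPM of *Il2ra*, lie nearer to the WT libraries than the other 3 CD25 KO mice.

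*Cd80* and *Icosl*, the members that fell most in the thymus, are shown with the 250 bases before their RefSeq start (GRCm38.p6, plus strand, 5′ to 3′). The *Cd80* window lies wholly inside the GENCODE gene, and the last part of the *Icosl* window also lies inside its gene. Promoter windows were matched for 4 of the 7 genes, these 2 and *Cd274* and *Pdcd1lg2*. Letters of a STAT motif (TTCNNNGAA), the kind of site that STAT5 binds downstream of the IL-2 receptor, were searched on both strands. So were the letters TGANTCA, a looser form of the AP-1 motif that allows any base in the middle. The motifs did not overlap in the windows of the 4 genes. The only match was TGATTCA in *Cd80*, in capitals, which begins at position -42 from the start. Its middle base is T, and binding of AP-1 to it was not tested. Of 32851 promoter windows of that length, 7.02% held the STAT letters and 6.75% the looser letters TGANTCA.
Cd80, chr16:38458683-38458932: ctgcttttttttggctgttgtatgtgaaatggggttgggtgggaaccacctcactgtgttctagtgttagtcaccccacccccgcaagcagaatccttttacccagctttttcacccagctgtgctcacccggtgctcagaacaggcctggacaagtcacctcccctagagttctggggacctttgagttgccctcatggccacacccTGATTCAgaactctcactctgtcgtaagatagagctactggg
Icosl, chr10:78069118-78069367: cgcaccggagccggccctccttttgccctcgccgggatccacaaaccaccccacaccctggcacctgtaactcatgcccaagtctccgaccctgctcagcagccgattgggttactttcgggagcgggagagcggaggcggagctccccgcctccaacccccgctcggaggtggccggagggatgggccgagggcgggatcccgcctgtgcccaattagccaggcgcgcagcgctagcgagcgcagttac

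Of the other receptors and ligands of the family, 6 of a list of 9 could be tested. None was called in the thymus, where 3.17% of all genes were called higher and 2.99% lower. Only *Pdcd1*, which encodes PD-1, was called in the spleen, where 5.90% were called higher and 3.55% lower. *Pdcd1* was at 113, 94.6, 86.3 and 97.6 CPM in splenic WT libraries 1 to 4 and at 150, 188, 184 and 157 CPM in splenic CD25 KO libraries, without overlap (log2 fold change 0.78, SE 0.0854, adjusted p = 1.44e-05, edgeR). In the thymus its log2 fold change was -0.28 (adjusted p = 0.145), and the difference between tissues was called at 1.08 (adjusted p = 0.000392, edgeR). *Ctla4* was at 66.0 to 78.6 CPM in thymic WT and 42.4 to 65.9 CPM in thymic CD25 KO libraries, a log2 fold change of -0.47 that missed the threshold (adjusted p = 0.0193, edgeR). In thymic CD25 KO libraries 1 to 5 it was at 45.6, 65.9, 43.5, 63.7 and 42.4 CPM. Mice 2 and 4, which had the most *Il2ra* of that group, were thus the highest. In the spleen *Ctla4* was at 48.8 to 54.9 and 52.1 to 60.0 CPM (0.13, adjusted p = 0.153), and its difference between tissues was called at 0.62 (adjusted p = 0.00864, edgeR). *Cd276* and *Vtcn1*, other members of the B7 family, were at 0.0975 CPM or below in every library.

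Genes that carry the CD28 and ICOS signal were not called in the thymus in either direction, 0 of 24 tested, where 3.17% of all genes were called higher and 2.99% lower. Among splenic Tregs, 5 of the 24 rose and 3 fell with CD25 KO, against 5.90% and 3.55% of all genes. The higher ones were *Malt1* (0.80 on the log2 scale, adjusted p = 8.35e-06), a protease of NF-kB signalling, *Bcl10* (0.28, adjusted p = 0.00659), an adaptor of the same pathway, *Maf* (0.78, adjusted p = 1.14e-05), a transcription factor that ICOS signals raise in helper T cells, *Grb2* (0.25, adjusted p = 0.00374), the adaptor named above, and *Pik3ca* (0.24, adjusted p = 0.00533), the p110-alpha subunit of PI3K. *Maf* was at 216 to 280 CPM in splenic WT and 370 to 461 CPM in splenic CD25 KO libraries. The lower ones were *Grap2* (-0.44, adjusted p = 4.54e-05), an adaptor that binds the CD28 tail, and *Pik3r1* (-0.33, adjusted p = 0.000511) and *Pik3cd* (-0.26, adjusted p = 0.00233), the p85 and p110-delta subunits of PI3K (edgeR throughout), so PI3K subunits were called in both directions. The list had a median log2 fold change of -0.038 (thymus) and -0.0086 (spleen).

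The controllers of *Icos* mRNA and of B7 proteins and CTLA-4 at the cell surface gave 1 call in each direction among 10 in the thymus, where 3.17% of all genes were called higher and 2.99% lower, and 1 higher call among 10 in the spleen, where 5.90% were called higher. *Rc3h2*, whose product Roquin-2 promotes decay of *Icos* mRNA, was higher in thymic CD25 KO Tregs, at 249 to 309 CPM against 159 to 228 CPM (log2 fold change 0.47, adjusted p = 0.00635, edgeR). *Cmtm6*, which keeps PD-L1 protein at the cell surface, was lower there, at 123 to 135 CPM against 152 to 177 CPM (-0.36, adjusted p = 0.00130). Neither was called in the spleen, at 0.10 (adjusted p = 0.202) and -0.066 (adjusted p = 0.488). In the spleen *Lrba*, which protects CTLA-4 from degradation, was higher in CD25 KO Tregs (0.31, adjusted p = 0.00348). Of the 2 phosphatases used by PD-1 and CTLA-4, *Ptpn11* (SHP-2) was higher in the spleen (0.49, adjusted p = 3.17e-05), and neither was called in the thymus.

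Effector Treg markers other than *Icos* are given as a description, because most of the list was chosen by the study from genes that were higher in these splenic CD25 KO libraries, which fixes the splenic direction. In the spleen 10 of 11 tested were higher (median log2 fold change 1.00), against 5.90% of all genes. In the thymus 6 of 10 tested were lower and 0 higher (median -1.16), against 2.99% and 3.17% of all genes. Thymic sums of the 11 genes overlapped, at 531 to 769.8 CPM in WT and 238 to 811 CPM in CD25 KO libraries with a CD25 KO median of 298 CPM, so that at least 1 CD25 KO library was above all WT libraries. *Tigit*, an inhibitory receptor, was at -2.58 (thymus) and 1.28 (spleen), and *Prdm1*, the gene of Blimp-1, at -1.05 and 1.00, all called. Of 8 central Treg markers, 4 were lower in the spleen, *Ccr7*, *Ly6c1* and *Bcl2* among them, and 1, *Tcf7*, was higher, against 3.55% and 5.90% of all genes. In the thymus 1 of the 8, *Klf2*, was lower and 0 were higher. The central markers named as lower in the spleen were likewise picked out by the study from these libraries and are not independent evidence of direction.

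The genes whose profile over the 18 libraries was nearest to that of *Icos*, by root-mean-square distance in log2 CPM after centring, were *Rnf125* (0.161), *Dcun1d4* (0.175) and *Pnkd* (0.179). The median distance of 9446 genes was 0.637. *Rnf125* had mean levels of 21.4 CPM (WT) and 15.7 CPM (CD25 KO) among thymic libraries and of 28.8 CPM (WT) and 47.5 CPM (CD25 KO) among splenic libraries, the same order as for *Icos*. That order follows from the choice by distance in these same libraries and is not independent evidence. Nearest to *Cd28* were *Stk26* (0.169), *Ccng2* (0.169) and *Hist2h2be* (0.184), against a median of 0.658.

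B7 ligands are best known from antigen-presenting cells, so markers of these cells were read in the same libraries. In the thymus no marker of B cells (0 of 4 tested), dendritic cells (0 of 6), macrophages and monocytes (0 of 5) or MHC class II (0 of 5) was called. Of all genes there, 3.17% were called higher and 2.99% lower. Median thymic log2 fold changes were 0.071 for B cell, 0.58 for dendritic cell, -0.89 for macrophage and monocyte and -0.65 for MHC class II markers. The median over all genes tested was -0.0022. Whether these shifts had a part in the thymic levels of the ligands was not tested. Summed B cell markers were at 16.03 to 20.9 CPM in thymic WT and 15.9 to 24.7 CPM in thymic CD25 KO libraries. Summed dendritic cell markers ranged from 24.5 to 44.5 CPM in thymic WT and from 14.5 to 63.1 CPM in thymic CD25 KO libraries. In thymic CD25 KO libraries 1 to 5 the sums were 59.1, 26.7, 63.1, 42.3 and 14.5 CPM, beside *Cd86* at 33.2, 24.9, 31.8, 21.5 and 36.0 CPM. Mice 1 and 3 were thus high for both, mouse 5 was lowest for the markers and highest for *Cd86*, and mouse 4 was lowest for *Cd86* with a middle sum. In thymic WT libraries 1 to 5 the sums were 44.5, 26.7, 33.1, 34.8 and 24.5 CPM, and mouse 5, the lowest, had the highest *Cd86* (20.7 CPM). *Zbtb46* alone made up 18.9 CPM of the sum in WT mouse 5 and 11.5 CPM in CD25 KO mouse 5. Whether it came from dendritic cells was not tested. *Siglech*, a marker of plasmacytoid dendritic cells, varied from 3.51 to 21.9 CPM in thymic WT and from 1.71 to 32.5 CPM in thymic CD25 KO libraries, and the part of such cells in the thymic levels of the ligands was not tested further. Summed macrophage markers were at 10.0 to 34.5 and 7.50 to 24.8 CPM, and MHC class II genes at 30.1 to 82.3 and 24.3 to 54.8 CPM, in thymic WT and CD25 KO libraries.

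In the spleen, where *Cd80* rose and *Cd86* fell, *Pax5* (1.04, adjusted p = 0.00352), *Lyz2* (1.03, adjusted p = 0.00132) and *Cd74* (0.40, adjusted p = 0.00137) were higher in CD25 KO libraries by edgeR. They were 1 marker each of the B cell (4 tested), macrophage (6 tested) and MHC class II (5 tested) lists, where 5.90% of all genes were called higher. The sums were at 25.7 to 29.2 CPM in WT and 28.0 to 30.8 CPM in CD25 KO libraries for B cells, 17.9 to 26.0 and 23.9 to 30.6 CPM for macrophages, and 52.7 to 67.0 and 76.1 to 86.6 CPM for MHC class II. The MHC class II sums did not overlap, and their part in the splenic differences of the ligands was not tested. Dendritic cell markers summed to 25.6 to 27.7 CPM in WT and 26.9 to 33.3 CPM in CD25 KO libraries, of which *Zbtb46* alone was at 23.2 to 24.9 and 24.0 to 30.5 CPM. *Siglech* was at 0.156 CPM or below and *Itgax* at 0.638 CPM or below in all 8 splenic libraries, and *Clec10a* was at 0 in each. *Xcr1* was at 1.26 to 2.46 CPM in WT and 2.07 to 2.34 CPM in CD25 KO libraries (log2 fold change 0.29, adjusted p = 0.425, edgeR). *Clec9a* and *Cd209a* were at 0 in every splenic WT library but not in every splenic CD25 KO library.

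**Figure D5:**
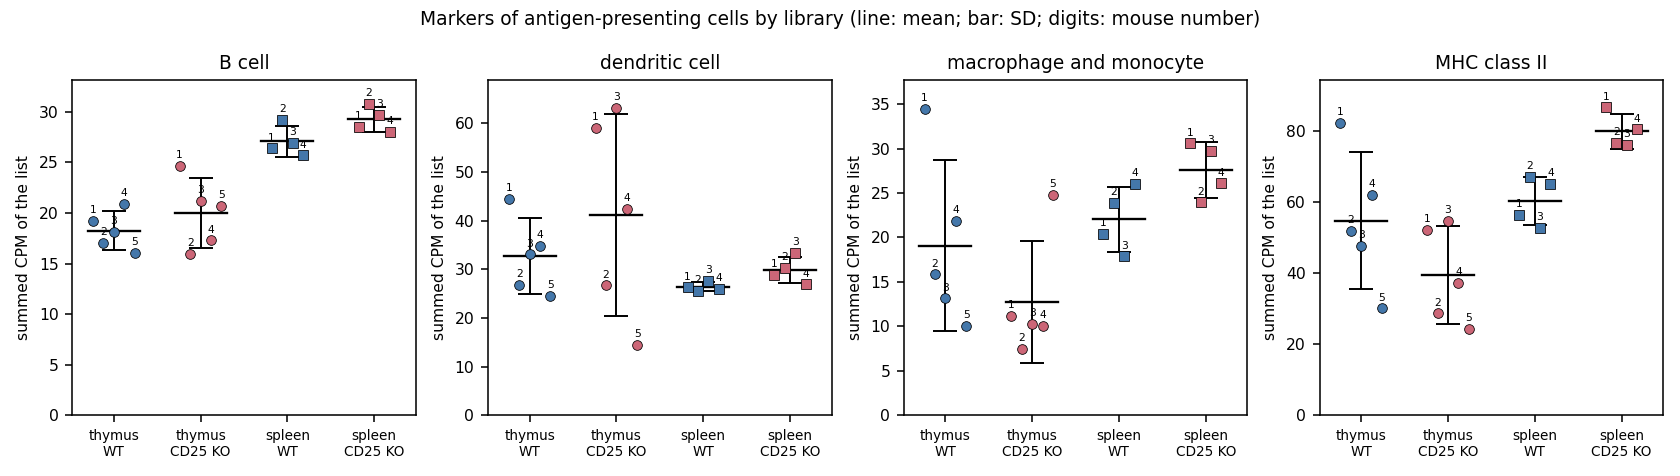
Summed CPM (vertical axes, linear from 0) of the marker lists of B cells, dendritic cells, macrophages and monocytes, and MHC class II in each library of the 4 groups, labelled by mouse number, with mean and SD. Thymic sums of dendritic cell markers spread from 14.5 to 63.1 CPM among CD25 KO mice, and splenic MHC class II sums were higher in all 4 CD25 KO than in all 4 WT libraries.

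Markers of thymic epithelium (0 of 3 tested in the thymus and 0 of 2 in the spleen), immature thymocytes (0 of 7 and 0 of 4) and red cells (0 of 3 and 0 of 1) were not called. *Klrb1c*, a natural killer cell marker, was higher in the spleen (1.90, adjusted p = 0.00290, edgeR), 1 of 4 tested there and 0 of 3 in the thymus. Of all genes in the spleen, 5.90% were called higher. The others tested there were *Eomes* (1.00, adjusted p = 0.0187), *Cd8a* (0.59, adjusted p = 0.0871) and *Cd8b1* (0.065, adjusted p = 0.744), by edgeR. *Ncr1* and *Klra8* of the same list were at 0 in every splenic library.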

How the data were processed

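Tregs were sorted from thymus and spleen, total RNA was depleted of ribosomal RNA (KAPA RNA HyperPrep with RiboErase), and the authors aligned the reads to GRCm38 with STAR 2.5.0b and counted them per gene of GENCODE M13 with featureCounts 1.5.0. The authors deposited 1 table of raw counts for 50600 gene identifiers in 18 samples, without normalization; the strand setting of the counting is not given in the sources used here. Symbols, positions and exon lengths were taken from GENCODE M21 of the same build, which names 50376 of the identifiers. Groups came from the sample labels. Thymic samples carry a mouse number in their titles; splenic libraries are numbered in the order of their accessions.

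Within each tissue, genes kept by filterByExpr were scaled by TMM and compared by edgeR's quasi-likelihood test (edgeR 4.0.16, R 4.3.3) with Benjamini-Hochberg adjustment over all genes tested, at FDR < 0.01; all adjusted p-values of single genes are from it unless DESeq2 is named. The study used DESeq2, here an alternative (1.42.0). The tissues were compared in 1 fit of all 18 samples with 4 groups. SE is the log2 fold change over the square root of F. CPM values were scaled by TMM over all 18 samples, and ratios of *Icos* to *Cd28* counts (pseudocount 0.5) were compared by exact permutation over samples. The members of the family and the gene lists were chosen with earlier results of these data known. All 7 members are named, and of the pathway lists up to 3 genes called in each direction with the largest change; *Grb2*, *Pik3ca*, *Ctla4*, *Cd276*, *Vtcn1* and the markers of Tregs and other cells were named after their values were seen, and some genes of the lists are not reported here. The test was checked on simulated counts. Reads carry no molecular identifiers, so the 3-count level covers counting error only. Alternatives were RLE and upper-quartile scaling, DESeq2, other filters on low counts, a GC correction, FDR < 0.05, 1 fit of all samples, the mouse number as a block, and leaving out mice. Promoter windows and their start sites are from RefSeq.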

Additional observations from a re-analysis of the deposited data

Results flagged for a closer look

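The difference between tissues of the genotype effect was called for 4 members, at 1.15 for *Icos*, 3.65 for *Cd80*, -1.39 for *Cd86* and 1.66 for *Icosl* (splenic minus thymic log2 fold change, edgeR). *Icos* and *Cd80* went down in the thymus and up in the spleen, *Cd86* went up and down, and *Icosl* went down in the thymus and was not called in the spleen.

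Of 28 groups of values examined (7 members in 4 groups), 3 held a library set apart from the rest of its group by Dixon's criterion, which chance alone gives in about 1 of 20. Thymic CD25 KO mouse 5 was high for *Cd28* (118 CPM, others 67.5 to 80.3) and for *Cd274* (75.2 CPM, others 62.4 to 65.9). Without that mouse the thymic log2 fold change of *Cd28* was 0.013 (adjusted p = 0.938) and that of *Cd274* 0.27 (adjusted p = 0.00398, edgeR). Thymic WT mouse 2 was high for *Cd274* at 55.0 CPM, within a narrow group of 52.7 to 53.3.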

How the results depend on the processing

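Every called log2 fold change of a member kept its direction under all alternatives. In the thymus the count of 5 called members was 3 with at least 10 counts in every sample, which *Cd80* and *Icosl* do not reach, 1 (*Cd80*) with the replicate block, and 1 to 5 when each mouse was left out. The mouse numbers share only a number, since same-number correlations ran from -0.24 to 0.14 and no WT library except number 1 correlated best with its own number. With the block *Icos* was at -0.38 (adjusted p = 0.0175), *Icosl* at -1.76 (0.0187), *Cd274* at 0.31 (0.0252) and *Cd86* at 0.71 (0.0113). The thymic ranges over the fits without 1 mouse were -0.42 to -0.34 for *Icos*, -1.93 to -1.38 for *Icosl*, 0.27 to 0.34 for *Cd274* and 0.65 to 0.82 for *Cd86*, and the calls lost are given with each gene. Without thymic CD25 KO mice 2 and 4, *Icos* was at -0.34. With the GC trend removed, *Cd86* in the thymus was at 0.58 and *Cd28*, not called before or after, at -0.068. The causes were not tested.

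In the spleen the count of 4 was 4 to 5 without 1 mouse. DESeq2 and no filter added *Cd28* (0.36 in both) and *Pdcd1lg2* (0.39 in both), and ranges without 1 mouse were 0.27 to 0.44 and 0.29 to 0.45. *Cd80* was at 1.10 in 1 fit of all samples (adjusted p = 0.0111). *Icosl* changed sign around 0, at -0.023 with upper-quartile scaling and from -0.12 to 0.087 without 1 mouse. The *Icos* to *Cd28* ratio kept its direction in the spleen (0.32 to 0.48 without 1 mouse), where 3 against 4 cannot give an exact permutation p below 0.0571. Of differences between tissues, 2 in place of 4 were called with at least 10 counts. *Pdcd1lg2* passed in DESeq2 (1.00) and without a filter (0.99), with 0.83 to 1.10 without 1 mouse, *Icosl* ran from 1.40 to 1.95, and *Cd274* stayed near 0, at -0.065 with upper-quartile scaling and -0.018 to 0.060 without 1 mouse. Depth limited mainly *Cd80* and *Icosl* in thymic CD25 KO libraries, with 8 to 40 and 5 to 54 counts.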
